A study of Homo sapiens with 6 samples.

Results

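The genes described here are LCN2 and the interleukin 1 axis, 10 of the 28265 genes in the deposited tables. They comprise LCN2 and its receptor gene SLC22A17, the ligand genes IL1A and IL1B, the receptor antagonist gene IL1RN, the receptor genes IL1R1 and IL1RAP, the adaptor gene MYD88, the kinase gene IRAK1 and NFKBIZ, a regulator of LCN2. They were chosen by name after the difference between the groups was known, so their differences between the groups are given as a description. The fit over all genes also covers them, but nothing is read from whether they passed its threshold. RNA was sequenced from LN229, an established human glioblastoma line. Of the 6 libraries, 3 were labelled TRIM25 knockdown, with a short hairpin RNA directed at TRIM25 per the series design, and 3 were labelled WT, with the unexplained letters NC in their titles. The labels name no hairpin sequence, no clone and no separate cultures, so the spread between libraries, which is all that the p-values measure, may be technical. All libraries came from cells grown in DMEM with serum and antibiotics, with no added cytokine named in the labels.

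Interleukin 1 alpha and beta bind the receptor IL1R1, which then recruits the accessory chain IL1RAP, and the antagonist encoded by IL1RN occupies IL1R1 without recruiting it. The assembled receptor signals through MYD88 and the IRAK kinases to NF-kB. NFKBIZ encodes the nuclear IkB protein zeta, which is itself induced by interleukin 1 and is needed for full activation of a subset of NF-kB targets that includes LCN2. Lipocalin 2, the product of LCN2, is a secreted protein that binds iron-loaded siderophores, and the products of SLC22A17 and LRP2 have been described as its receptors. In the brain, reactive astrocytes are a known source of lipocalin 2.

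The libraries labelled knockdown held between 11349865 and 16404725 counts on genes, and those labelled WT between 13763400 and 15868470. TRIM25, which encodes a ubiquitin ligase, had 964, 905 and 1443 counts in the libraries labelled knockdown and 561, 493 and 563 counts in the libraries labelled WT. Its log2 fold change was 1.22 ± 0.07 (SE), with an edgeR adjusted p = 3.23e-09, so the targeted mRNA goes against the label and every direction below is one between labelled groups. TRIM25 shares 132 bp of exon with C17orf67 on the same strand. Of 9 markers of a glioblastoma line 7 had at least 1 CPM (counts scaled to library size) in all 6 libraries, but GFAP and SOX9 did not. The 9 together summed to between 5846 and 6231 TPM in the libraries labelled knockdown and between 6438 and 6638 TPM in the libraries labelled WT, most of it VIM and S100B. The 9 did not move together, and of those named here after their values were seen, SOX2, OLIG2 and S100B had log2 fold changes of -0.66, -0.67 and -0.33 and NES one of 0.27 (edgeR adjusted p from 1.45e-06 to 0.00482). TPM is a level scaled to gene length as well as to library size.

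LCN2 and the interleukin 1 ligands are also expressed by leukocytes and epithelium, so the markers of those cells were read beside them. Of 10 myeloid markers, AIF1 and TYROBP were at 0 in all libraries and only CD68, a lysosomal gene, reached 1 CPM in every library. The summed level of the 10 was between 102.2 and 120.9 TPM in the libraries labelled knockdown and between 74.1 and 78.4 TPM in the libraries labelled WT, nearly all of it CD68 (mean 106.2 TPM and 72.9 TPM in the same order of groups). The integrin gene ITGAM, named like CD68 after its values were seen, had 2.99 ± 0.514 CPM in the libraries labelled knockdown and 1.22 ± 0.350 CPM in the libraries labelled WT (SD, n = 3 each). The 10 did not move together. LYZ, named in the same way and under the low-count filter, had 0.389 ± 0.184 CPM and 0.614 ± 0.0678 CPM in the same order of groups. The means of CD14 and CSF1R, also under that filter, were lower in the libraries labelled knockdown too, with overlapping groups. The 7 neutrophil markers summed to between 1.42 and 3.51 TPM in the libraries labelled knockdown and to between 1.29 and 2.26 TPM in the libraries labelled WT. Most of both sums was CAMP (mean 2.46 TPM and 1.11 TPM in the same order of groups), whose groups overlapped in CPM. MPO and ELANE were lower in the libraries labelled knockdown, with 4 counts or fewer in every library. CEACAM8, S100A12 and FCGR3B were at 0 in all libraries. Of 6 epithelial markers KRT5 was at 0 in all libraries, and the 6 summed to between 185.2 and 203.2 TPM in the libraries labelled knockdown and between 172.8 and 186.4 TPM in the libraries labelled WT, nearly all of it KRT8 and KRT18. KRT14, also named after its values were seen, had 1.56 ± 0.310 CPM in the libraries labelled knockdown and 3.19 ± 0.149 CPM in the libraries labelled WT (SD, n = 3 each). The part of these markers in the results was not tested.

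The sequence just upstream of LCN2, IL1A and IL1B is shown because these 3 genes were the members at least 1.5-fold higher in the libraries labelled knockdown. Each is the 250 bases before the upstream-most annotated start, from RefSeq on GRCh38.p14, read 5′ to 3′ on the gene's strand. The LCN2 stretch is chr9:128149203-128149452 on the plus strand, that of IL1A is chr2:112784494-112784743 on the minus strand and that of IL1B is chr2:112836780-112837029 on the minus strand. Capitals mark matches on either strand to GGGA, any 4 bases and CC (a pattern of NF-kB sites), TTGCNNAA (C/EBP) and TGANTCA (AP-1).
LCN2: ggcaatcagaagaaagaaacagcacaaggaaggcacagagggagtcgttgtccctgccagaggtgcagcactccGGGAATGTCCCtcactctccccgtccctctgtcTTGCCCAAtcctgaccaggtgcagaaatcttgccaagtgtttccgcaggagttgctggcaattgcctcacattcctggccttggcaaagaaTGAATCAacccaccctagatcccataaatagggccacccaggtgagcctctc
IL1A: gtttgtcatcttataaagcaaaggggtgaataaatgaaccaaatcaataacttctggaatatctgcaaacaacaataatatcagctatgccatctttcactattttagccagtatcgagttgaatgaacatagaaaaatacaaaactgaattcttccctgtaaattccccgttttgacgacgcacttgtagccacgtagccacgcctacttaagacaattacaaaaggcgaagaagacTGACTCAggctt
IL1B: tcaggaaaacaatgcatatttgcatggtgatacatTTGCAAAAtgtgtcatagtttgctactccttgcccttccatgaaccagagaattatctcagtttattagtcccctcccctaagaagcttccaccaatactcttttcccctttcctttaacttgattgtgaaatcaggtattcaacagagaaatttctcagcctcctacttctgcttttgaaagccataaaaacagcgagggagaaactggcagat

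The LCN2 stretch held GGGAATGTCC from base 176 to base 167 upstream of the start. The overlapping bases 175 to 166 match the same pattern on the other strand, so the capitals there run over both. It also held a C/EBP match from base 143 to 136 and an AP-1 match from base 52 to 46. The IL1A stretch held 1 match, to the AP-1 pattern, and the IL1B stretch held 1 match, to the C/EBP pattern. All 10 members matched the RefSeq table, with 18 starts. The NF-kB pattern occurred upstream of 5 of the 18, in LCN2, IL1RAP, IRAK1 and both starts of NFKBIZ, the first of which held GGGAATTTCC. The C/EBP pattern occurred upstream of 2 starts and the AP-1 pattern upstream of 4, which belong to 3 members. The windows of both IL1A starts overlap, and the same TGACTCA lies in each of them. Over all 34943 annotated windows of the same length, 22.6% held the NF-kB pattern, 9.06% the C/EBP pattern and 6.59% the AP-1 pattern. The patterns were chosen with the sequences and the fold changes in view, and a match is a description of letters only.

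LCN2 had the largest log2 fold change in the upward direction of all 14315 genes tested. Its counts were 780, 667 and 885 in the libraries labelled knockdown and 142, 137 and 156 in the libraries labelled WT. Scaled to library size these were 65.0, 58.9 and 54.3 CPM in the libraries labelled knockdown, against 8.93, 9.94 and 9.87 CPM in the libraries labelled WT. The lowest library labelled knockdown stood far above the highest library labelled WT, and the spread within each group was small beside the gap between them. The log2 fold change was 2.63 (95% interval 2.43 to 2.83), a 6.19-fold difference. In bulk RNA, more cells with the transcript and more transcript in each cell cannot be told apart.

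SLC22A17, which encodes a membrane receptor for lipocalin 2, lay on the other side. Its level was 7.25, 6.28 and 4.91 CPM in the libraries labelled knockdown, against 9.69, 9.43 and 9.68 CPM in the libraries labelled WT. The groups did not overlap, and the libraries labelled knockdown were the more spread. The log2 fold change was -0.67 (95% interval -0.96 to -0.38), and it lay between -0.80 and -0.50 when any 1 library was left out. Per library, LCN2 was 26.9, 28.2 and 33.2 times the SLC22A17 level in TPM in the libraries labelled knockdown and 2.76, 3.16 and 3.06 times in the libraries labelled WT.

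**Figure D1:**
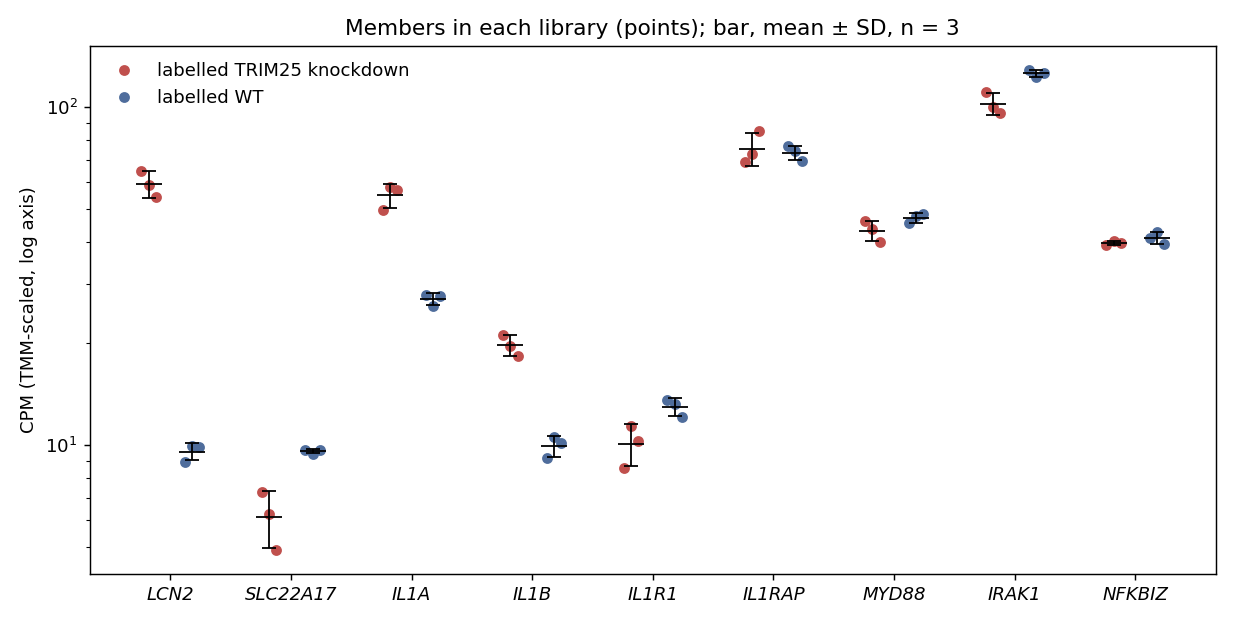
Level of 9 members in CPM (log axis) in each library labelled TRIM25 knockdown (red, left) and labelled WT (blue, right); points are libraries and black bars the mean ± SD (n = 3). The red points of LCN2, IL1A and IL1B lie above the blue ones and those of SLC22A17, IL1R1 and IRAK1 below them, with no overlap, while IL1RAP, MYD88 and NFKBIZ overlap; IL1RN is not drawn because 5 of its 6 values are 0.

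Both interleukin 1 ligand genes were close to 2.0 times as high in the libraries labelled knockdown. IL1A, which encodes the alpha form that is active without cleavage, had 49.7, 58.2 and 56.9 CPM in the libraries labelled knockdown, against 27.9, 25.7 and 27.6 CPM in the libraries labelled WT. IL1B, which encodes the beta form that must be cleaved to act, had 21.2, 19.6 and 18.4 CPM in the libraries labelled knockdown, against 9.18, 10.6 and 10.1 CPM in the libraries labelled WT. In both genes all 3 libraries labelled knockdown stood above all 3 labelled WT. The log2 fold change was 1.02 (95% interval 0.85 to 1.19) for IL1A and 0.98 (95% interval 0.77 to 1.20) for IL1B, with intervals that cover much the same range. The IL1A level was 1.67, 2.12 and 2.21 times that of IL1B in TPM in the libraries labelled knockdown and 2.17, 1.74 and 1.95 times in the libraries labelled WT, so this ratio overlapped between the groups.

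IL1RN, which encodes the secreted antagonist of the receptor, had 0 counts in each library labelled knockdown and 0, 0 and 1 counts in the libraries labelled WT. It was the 1 member that did not pass the low-count filter, and it has no fold change. A count of 0 allows up to 3 counts, which is 0.183 to 0.264 CPM in the libraries labelled knockdown and 0.189 to 0.218 CPM in the 2 libraries labelled WT with 0 counts, counting error only. Antagonist mRNA was therefore at or below the limit of detection at this depth, with at most 1 count in any library, beside ligand genes at 9.18 CPM or more.

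IL1R1, which encodes the signalling receptor, was the least abundant of the tested members per length. It had 8.58, 11.4 and 10.3 CPM in the libraries labelled knockdown, against 13.6, 13.3 and 12.1 CPM in the libraries labelled WT. The groups did not overlap, although the gap between 11.4 and 12.1 CPM was smaller than the range within the libraries labelled knockdown. The log2 fold change was -0.36 (95% interval -0.60 to -0.12), and -0.26 without labelled knockdown replicate 1, the lowest library. IL1RAP, which encodes the accessory chain shared with other receptors of the family, had 68.7, 72.8 and 84.8 CPM in the libraries labelled knockdown, against 76.6, 74.1 and 69.4 CPM in the libraries labelled WT. These groups overlapped fully, and the log2 fold change of 0.04 had a 95% interval from -0.12 to 0.21. IL1RAP shares 535 bp of exon on its own strand with a long noncoding RNA gene in GENCODE v29, so some reads could belong to either.

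Of the genes that carry the signal from the receptor, MYD88, which encodes the adaptor, had 46.0, 43.5 and 39.9 CPM in the libraries labelled knockdown, against 45.4, 47.6 and 48.3 CPM in the libraries labelled WT. The groups overlapped through labelled knockdown replicate 1, and the log2 fold change was -0.13 (95% interval -0.29 to 0.02). IRAK1, which encodes the kinase that MYD88 recruits with IRAK4, had 110.7, 100.2 and 96.4 CPM in the libraries labelled knockdown, against 128.8, 122.7 and 126.2 CPM in the libraries labelled WT. All 3 libraries labelled knockdown were lower, by 0.30 on the log2 scale (95% interval of the log2 fold change -0.44 to -0.16). NFKBIZ had 39.0, 40.1 and 39.6 CPM in the libraries labelled knockdown, against 41.1, 42.8 and 39.4 CPM in the libraries labelled WT. The groups overlapped, and the log2 fold change of -0.05 had a 95% interval from -0.20 to 0.09. The upper bound of that interval is far below the log2 fold change of LCN2, and the part of NFKBIZ in the LCN2 difference was not tested.

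Of the 9 members tested, 3 passed an edgeR adjusted p of 0.05 as higher in the libraries labelled knockdown and 3 as lower, where 12.2% of all genes were called higher and 11.0% lower. The 6 were also the members whose groups did not overlap in CPM, which held for 37.3% of all genes. The members were chosen on this contrast, so nothing is read from these counts. Without labelled knockdown replicates 1 or 3, or without labelled WT replicates 1 or 2, the number lower was 2, and with DESeq2 or a replicate block it was also 2, IL1R1 being the gene that did not pass in each of these.

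The order of the members by level changed between the groups. Per length, LCN2 was the most abundant member in the libraries labelled knockdown, at 207.3 ± 12.8 TPM, and was below IRAK1, MYD88 and IL1A in the libraries labelled WT, at 32.3 ± 1.27 TPM (SD, n = 3 each). Only 869 of the 28265 genes had a higher mean TPM than LCN2 in the libraries labelled knockdown, against 5384 in the libraries labelled WT. In the libraries labelled knockdown LCN2 was followed by IRAK1 (81.9 ± 3.57 TPM) and IL1A (74.9 ± 7.98 TPM), whose ranges overlapped. MYD88, IL1B, NFKBIZ, IL1RAP, SLC22A17 and IL1R1 followed in that order, with no overlap between the ranges of neighbours. In the libraries labelled WT the order was IRAK1, MYD88, IL1A, LCN2, NFKBIZ, IL1B, IL1RAP, SLC22A17 and IL1R1, and there IL1B (18.3 ± 1.02 TPM) and IL1RAP (17.7 ± 1.24 TPM) were the neighbours whose ranges overlapped. The accessory chain exceeded the receptor in every library: IL1RAP was 4.15, 3.31 and 4.26 times the IL1R1 level in TPM in the libraries labelled knockdown and 2.92, 2.89 and 2.98 times in the libraries labelled WT.

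**Figure D2:**
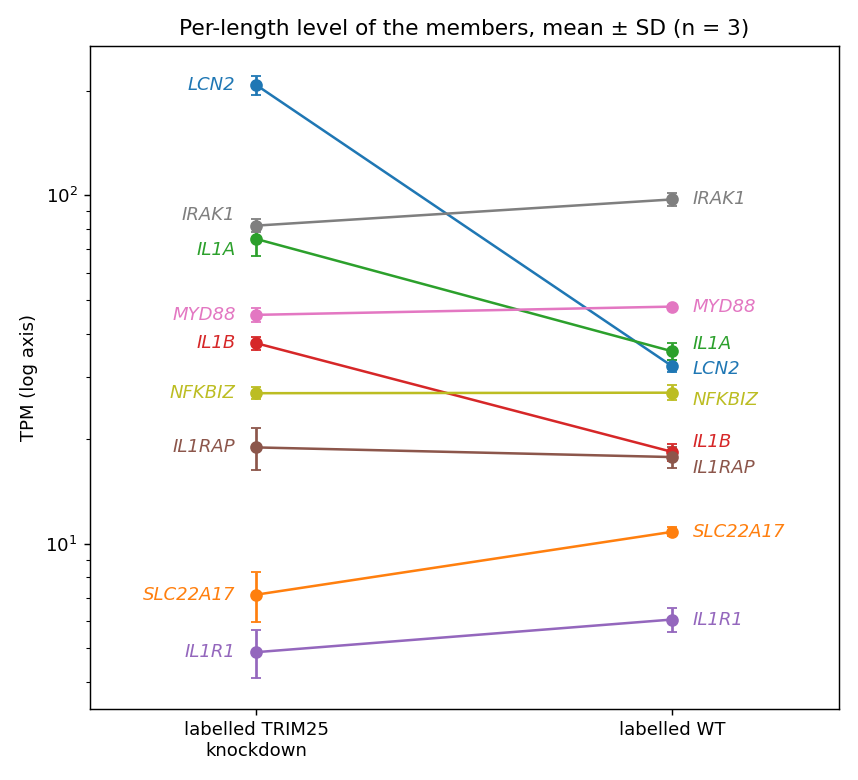
Mean TPM ± SD (n = 3, log axis) of the 9 members above the low-count filter in the libraries labelled TRIM25 knockdown (left) and labelled WT (right), with a line for each gene. LCN2 leads the members at 207.3 TPM on the left and is below IRAK1, MYD88 and IL1A at 32.3 TPM on the right. IL1B is above NFKBIZ on the left and below it on the right, and its mean is above that of IL1RAP on both sides.

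The members also differ in length, and length followed the libraries. LCN2 has a length of 820 bp in the tables and IL1RAP one of 11465 bp, against a median of 3592 bp over the tested genes. Across genes, Spearman's rho of a library's deviation from its group mean with length came to -0.38 and 0.38 for labelled knockdown replicates 1 and 3, and to 0.41 and -0.36 for labelled WT replicates 1 and 3. The difference between the groups followed length as well: rho of the log2 fold change with length was 0.30 over the tested genes, so longer genes tended to have the higher values. The short genes LCN2 and IL1B were highest, and the long gene IL1RAP lowest, in labelled knockdown replicate 1 among the libraries of its group. IL1A, at 2103 bp also below the median, went the other way and was lowest in that library. With an offset for length and GC content fitted in each library, the log2 fold change was 2.78 for LCN2 and 1.06 for IL1B, and it was -0.11 for IL1RAP. IL1R1 had -0.46, IRAK1 -0.21 and SLC22A17 -0.56 in that fit.

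**Figure D3:**
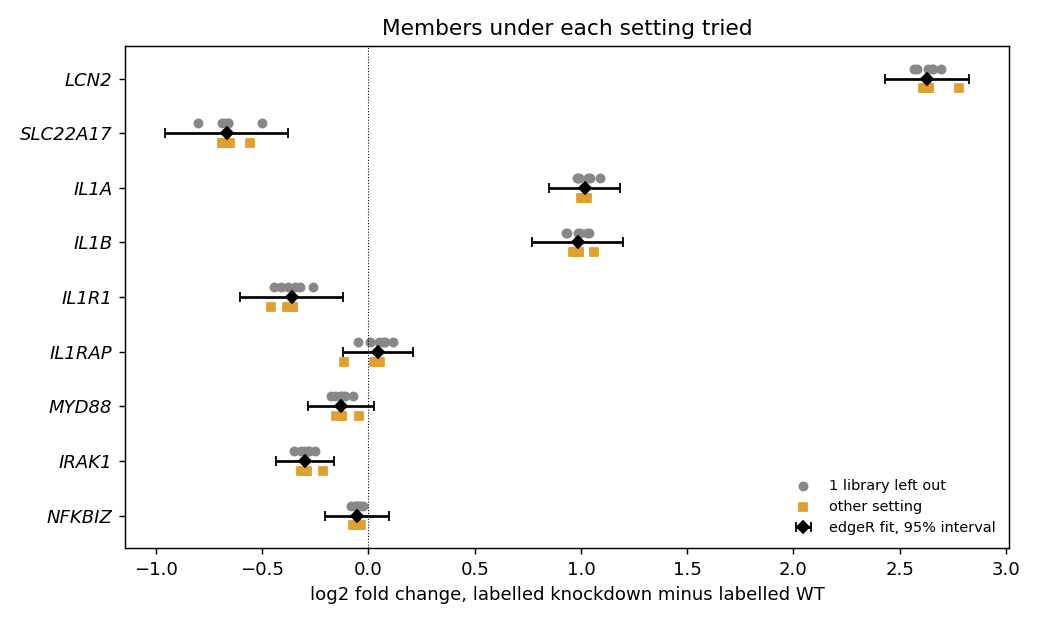
Log2 fold change (labelled TRIM25 knockdown minus labelled WT) of 9 members: black diamonds are the edgeR fit with its 95% interval, grey circles fits with 1 library left out and orange squares other settings. LCN2 stays between 2.57 and 2.78, IL1A between 0.98 and 1.09 and IL1B between 0.93 and 1.06, and IL1RAP spans 0 from -0.11 to 0.12.

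The genes around the members were counted in 7 lists compiled from general knowledge, none of which holds a member. The lists were chosen with earlier results of these data known, so their shares of calls are a description and not independent evidence. Over all genes 23.3% passed the threshold, and the median log2 fold change was -0.0038. Among other ligands and receptors of the interleukin 1 family, 5 of 16 were tested, 1 rose and 4 did not pass, which made 20% called. The one that rose was IL18BP, which encodes a secreted protein that binds interleukin 18. It had 12.7, 11.2 and 12.2 CPM in the libraries labelled knockdown, against 8.62, 8.27 and 7.53 CPM in the libraries labelled WT (edgeR adjusted p = 0.00145), and it shares 675 bp of exon with NUMA1 on the opposite strand. The decoy receptor gene IL1R2, named after its values were seen, did not pass the low-count filter, at 0.274 ± 0.0294 CPM in the libraries labelled knockdown and 0.635 ± 0.167 CPM in the libraries labelled WT (SD, n = 3 each).

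Of 11 tested genes of interleukin 1 processing and release 1 rose, 3 fell and 7 did not pass, with a median log2 fold change of -0.04. In this list 36.4% were called, beside 23.3% of all genes. NLRP1, which encodes an inflammasome sensor, rose. It had 46.1, 47.5 and 46.4 CPM in the libraries labelled knockdown and 30.4, 26.5 and 31.1 CPM in the libraries labelled WT (edgeR adjusted p = 1.17e-05). The calpain genes CAPN1 and CAPNS1, which encode subunits of a protease that cleaves the interleukin 1 alpha precursor, fell by 0.24 and 0.22 on the log2 scale. GSDMD, which encodes the pore-forming gasdermin D, fell by 0.29. These 3 calls were lost without any 1 of labelled knockdown replicates 2 or 3 or labelled WT replicates 2 or 3, with edgeR adjusted p from 0.0667 to 0.0882 for CAPN1, from 0.0528 to 0.0834 for CAPNS1 and from 0.0767 to 0.162 for GSDMD. Under the length and GC offset their log2 fold changes were -0.16, -0.11 and -0.16, and GSDMD did not pass. PYCARD, which encodes the inflammasome adaptor, had 0 counts in all libraries and was named after its values were seen. CASP1, named in the same way, encodes the protease that cleaves the interleukin 1 beta precursor. It had 3.41 ± 0.199 CPM in the libraries labelled knockdown and 3.14 ± 0.141 CPM in the libraries labelled WT (SD, n = 3 each).

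Between the receptor and NF-kB, 4 of 29 tested genes rose, 2 fell and 23 did not pass, with a median log2 fold change of 0.01. Here 20.7% were called, beside 23.3% of all genes. IRAK2, which encodes a kinase that sustains the signal, had 301, 256 and 318 counts in the libraries labelled knockdown, against 191, 211 and 230 counts in the libraries labelled WT, and the groups did not overlap in CPM. Its log2 fold change of 0.68 ± 0.11 (SE; edgeR adjusted p = 0.000351) was opposite in sign to the value for IRAK1. CYLD and TNFAIP3, which encode deubiquitinases that restrain NF-kB, rose by 0.41 and 0.27, and NFKB1, which encodes a subunit of NF-kB, rose by 0.19. NFKBIA, which encodes the inhibitor IkB alpha, fell by 0.30 (edgeR adjusted p = 0.00185), and ECSIT, an adaptor gene, fell by 0.26. The TNFAIP3 call was lost without labelled WT replicate 3 (edgeR adjusted p = 0.0554). The NFKB1 call was lost without labelled knockdown replicates 2 or 3 or labelled WT replicates 2 or 3 (0.0574 to 0.149), and the ECSIT call without any 1 library other than labelled knockdown replicate 1 (0.0944 to 0.182). Under the length and GC offset the log2 fold change was 0.27 for CYLD, -0.18 for NFKBIA and -0.13 for ECSIT, which then did not pass.

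Of 33 genes known to be induced by interleukin 1, 21 were tested, and 8 rose, 3 fell and 10 did not pass. The share called was 52.4%, beside 23.3% over all genes, and the median log2 fold change was 0.13. C3, which encodes complement component 3, had 399.6 ± 8.90 CPM in the libraries labelled knockdown and 265.9 ± 13.7 CPM in the libraries labelled WT. The adhesion receptor gene ICAM1 had 331.4 ± 14.5 CPM in the libraries labelled knockdown and 223.0 ± 4.50 CPM in the libraries labelled WT, and the cytokine gene LIF had 340.3 ± 17.4 CPM and 242.2 ± 1.30 CPM in the same order of groups (SD, n = 3 each). The edgeR adjusted p values of C3, ICAM1 and LIF were 1.28e-06, 1.63e-06 and 8.74e-06. IL32, a cytokine gene, rose by 0.60 on the log2 scale, and SAA1, an acute phase gene, rose by 0.61, although its near-identical copy SAA2 may share its reads. TNFAIP2 fell by 0.44. Named after their values were seen, CXCL8 and IL6, which encode neutrophil-attracting and acute phase cytokines, did not pass: CXCL8 had a log2 fold change of 0.12 ± 0.06 and IL6 one of -0.37 ± 0.21 (SE). ICAM1 and LIF overlap antisense transcripts by 815 and 175 bp of exon.

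Among 17 tested genes known to regulate LCN2, other than NFKBIZ, 4 rose, 4 fell and 9 did not pass, with a median log2 fold change of 0.02. In this list 47.1% were called, beside 23.3% of all genes. SOCS3, which encodes a feedback inhibitor of STAT3 signalling, fell most: it had 26.3, 24.9 and 23.4 CPM in the libraries labelled knockdown, against 59.3, 62.2 and 64.0 CPM in the libraries labelled WT. Its log2 fold change was -1.32 ± 0.08 (SE; edgeR adjusted p = 3.23e-09). IL6ST, which encodes the shared receptor chain of the interleukin 6 family, rose by 0.47, with 471.4 ± 59.9 CPM in the libraries labelled knockdown and 340.5 ± 18.3 CPM in the libraries labelled WT (SD, n = 3 each). The NF-kB subunit genes REL and NFKB2 rose by 0.46 and 0.41. CEBPD, which encodes a C/EBP factor, fell by 0.52, and BCL3, which encodes a nuclear IkB protein like NFKBIZ, fell by 0.41. The edgeR adjusted p of these 5 genes was between 0.000258 and 0.00643. Under the length and GC offset the log2 fold change was 0.31 for IL6ST, 0.29 for REL, -0.31 for CEBPD and -0.27 for BCL3. REL shares 5702 bp of its annotated exon with a noncoding transcript on the same strand.

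Of 24 tested partners of lipocalin 2 and genes of iron handling, 5 rose, 4 fell and 15 did not pass, with a median log2 fold change of -0.04. Here 37.5% were called, beside 23.3% of all genes. LRP2, which encodes megalin, the other receptor described for lipocalin 2, fell as well. It had 3.75, 5.39 and 5.28 CPM in the libraries labelled knockdown, against 9.81, 8.70 and 9.36 CPM in the libraries labelled WT, with a log2 fold change of -0.94 ± 0.14 (SE; edgeR adjusted p = 0.000156). MMP9, which encodes a protease that lipocalin 2 can bind, had 28, 11 and 24 counts in the libraries labelled knockdown and 6, 15 and 9 counts in the libraries labelled WT. It passed (edgeR adjusted p = 0.0256) with overlapping groups, and the call was lost without labelled knockdown replicate 1 or labelled WT replicates 1 or 3 (0.0764 to 0.0988). HMOX1, which encodes the haem-degrading oxygenase that releases iron, rose by 0.87, with 82.9 CPM or more in the libraries labelled knockdown and 52.8 CPM or less in the libraries labelled WT. The iron carrier gene TF rose by 0.67, with 502.2 ± 6.45 CPM in the libraries labelled knockdown and 315.6 ± 3.19 CPM in the libraries labelled WT (SD, n = 3 each; edgeR adjusted p = 1.31e-07). The ferroxidase gene CP fell by 0.51, and the ferritin light chain gene FTL, which has many processed copies that may take reads, fell by 0.30, or by 0.15 under the length and GC offset. TF shares 112 bp of exon with SRPRB and 191 bp with TFP1 on the same strand, and CP overlaps HPS3 by 1418 bp of exon on the opposite strand. The deposited values give TF a length of 21225 bp, against a median of 3592 bp over the tested genes. Which transcripts its counts come from was not tested. Of 17 other lipocalin genes 3 were tested, LCN10, APOD and APOM, and 0 passed with edgeR, DESeq2 or limma-voom; 0 had an unadjusted edgeR p under 0.05. With no low-count filter PAEP passed as lower (edgeR adjusted p = 0.0427), with 1, 2 and 6 counts in the libraries labelled knockdown and 9, 10 and 11 counts in the libraries labelled WT; it was named after its values were seen.

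**Figure D4:**
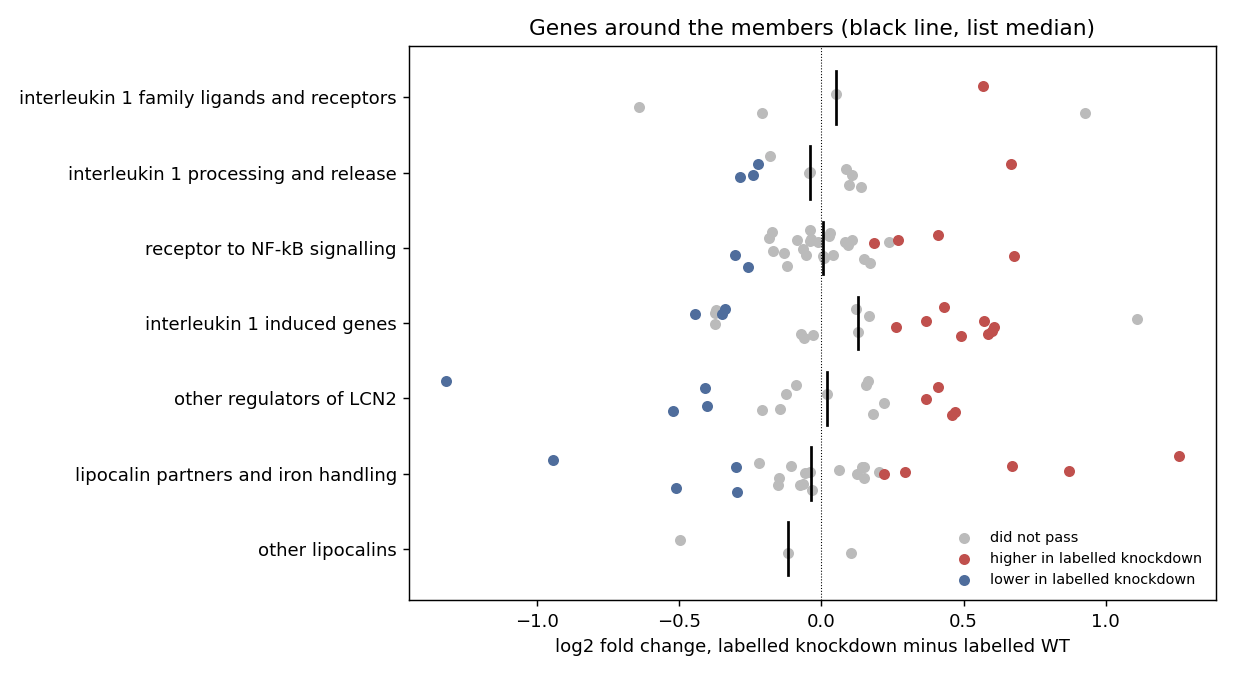
Log2 fold change (labelled TRIM25 knockdown minus labelled WT) of each tested gene in the 7 lists around the members: red points passed higher, blue points passed lower and grey points did not pass an edgeR adjusted p of 0.05, and black lines are list medians. The genes induced by interleukin 1 have a list median of 0.13, and the other medians lie between -0.12 and 0.05; SOCS3 at -1.32 and LRP2 at -0.94 are the lowest points.

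The genes beside LCN2 and beside the pair IL1A and IL1B were read from the RefSeq order. The 3 nearest tested genes on each side were taken. Of the 6 neighbours of LCN2, 1 fell and 5 did not pass. PTGES2, which encodes a prostaglandin E synthase, fell by 0.23 (edgeR adjusted p = 0.0291). The call was lost with DESeq2 and without any 1 library other than labelled knockdown replicate 1 (0.0653 to 0.136). The nearest genes on the other side, C9orf16 and CIZ1, had log2 fold changes of 0.10 ± 0.11 and 0.04 ± 0.07 (SE), and DNM1 had 0.14 ± 0.07. SLC25A25-AS1 and PTGES2-AS1 had -0.24 ± 0.12 and -0.58 ± 0.34, and PTGES2-AS1 overlapped between the groups. Beside the interleukin 1 pair 2 of 6 neighbours rose. The 3 calls of 12 stand beside 23.3% of all genes called. CKAP2L, a mitotic spindle gene, rose by 0.53 and SLC20A1, a phosphate transporter gene, by 0.65, with edgeR adjusted p values of 1.19e-05 and 2.98e-06. IL37, an interleukin 1 family gene beyond IL1B, had 0.894 ± 0.101 CPM in the libraries labelled knockdown and 0.457 ± 0.0820 CPM in the libraries labelled WT (SD, n = 3 each) and did not pass (edgeR adjusted p = 0.0737). PAX8, PSD4 and CHCHD5 had log2 fold changes of 0.27 ± 0.10, -0.11 ± 0.20 and -0.19 ± 0.12 (SE) and did not pass. Under the length and GC offset C9orf16, CIZ1, DNM1, IL37 and PAX8 also passed as higher, which made 7 of 12 neighbours, where 18.0% of all genes were called higher and 14.3% lower in that fit, and PTGES2 did not pass.

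Over the 6 libraries, the genes whose log2 CPM followed that of LCN2 most closely were CD22, SRPRA, CTSK, AARS1 and TF, with Pearson's r between 0.997 and 0.999. These values describe 6 libraries in 2 groups and are set mainly by the difference between the groups. CD22, a sialic acid-binding receptor gene, had 77.2, 75.3 and 75.2 CPM in the libraries labelled knockdown, against 46.8, 46.9 and 47.4 CPM in the libraries labelled WT. CTSK, which encodes the protease cathepsin K, had 54.6, 55.7 and 54.6 CPM in the libraries labelled knockdown, against 30.2, 32.1 and 31.5 CPM in the libraries labelled WT. Their log2 fold changes of 0.69 and 0.81 were well below the 2.63 of LCN2, so likeness of pattern here does not mean a like size. SRPRA, which encodes a subunit of the signal recognition particle receptor, and AARS1, which encodes a transfer RNA synthetase, had log2 fold changes of 0.31 and 0.29.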

How the data were processed

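Per the submitters' processing notes, reads were handled with FastQC, MultiQC, Trim Galore and HISAT2 on build hg19; tool versions, the annotation, and the program that counted reads and whether it used strand were not given in the sources used here. Libraries were made with a kit that keeps strand, per the labels' protocols. Each library has 1 table: the deposited counts are whole reads per gene with no normalisation, the deposited FPKM divides them by gene length and total, and the deposited TPM rescales this to a fixed total, per the file headers and values. Gene lengths were recovered from the FPKM, and TPM served to compare genes.

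Counts were tested in R 4.3.3 with edgeR 4.0.16 (filterByExpr, TMM, glmQLFit, glmQLFTest, group as the only term, 6 libraries), with Benjamini-Hochberg adjustment over 14315 genes and a threshold of 0.05. Log2 CPM used a prior count of 2. The 95% intervals use the fit's t distribution. The fit was tested on simulated counts. Members and lists were chosen with earlier results of these data known. Named genes were all members, TRIM25, up to 6 called genes a list by size, 3 tested neighbours a side and the 5 genes most correlated with LCN2; genes of the marker lists are named from those lists, and others are marked as chosen after their values were seen. Exon overlaps and GC content come from GENCODE v29, on another build than the files. Alternatives were DESeq2 1.42.0, limma-voom (limma 3.58.1), other scalings and filters, libraries left out, a replicate block and a length and GC offset.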

Additional observations from a re-analysis of the deposited data

How the results depend on the processing

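Under 14 alternative settings, 122 of 126 member values moved by less than the spread between libraries, 4 moved by more and 0 of the called members changed direction. The 4 were under the length and GC offset: the log2 fold change was 2.78 for LCN2, -0.11 for IL1RAP, -0.044 for MYD88 and -0.21 for IRAK1; the cause was not tested. With any 1 library left out, LCN2 lay between 2.57 and 2.70.

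Over all genes 1753 were higher and 1577 lower; with a replicate block these counts were 967 and 924, with upper-quartile factors 1527 and 1811, so that more genes were lower, and with the length and GC offset 2581 and 2053. The labels do not say that a number marks a shared culture or day, and same-numbered libraries did not deviate together (correlations of their deviations from -0.22 to 0.01), so the block was not used. With 1 library left out the number higher ranged from 930 to 2622 and the number lower from 866 to 2319, the highest of both without labelled knockdown replicate 1; without labelled knockdown replicate 2 or labelled WT replicates 2 or 3 both fell by over 1.5 times. Over the 7 lists 23 genes were higher and 16 lower, and with 1 library left out between 19 and 29 were higher and between 12 and 27 lower, with 27 without labelled knockdown replicate 1. Under the replicate block these were 18 and 12.

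Of the 12 neighbours, 2 were higher and 1 lower. The number lower was 0 with DESeq2 and 0 with the replicate block, and between 0 and 2 with 1 library left out. Under the length and GC offset 7 were higher and 0 lower. Of 56 genes followed through the settings (TRIM25, called list genes, all neighbours and similar genes), 11 lost a call at least once; with DESeq2 these included ECSIT, GSDMD and MMP9. Depth limits IL1RN and other genes under the low-count filter.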
